A study of Mus musculus with 6 samples.

Results

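The actin genes described here were 10 of the 33971 genes in the deposited table: the 3 actin isoform genes Actb, Actg1 and Acta2, and 7 genes whose proteins control actin filaments, Arpc1b, Cfl1, Pfn1, Lcp1, Coro1a, Tmsb4x and Was. They were taken by gene name, 1 row each, and all 10 passed the filter on low counts. They were chosen by their measured counts and FPKM in these libraries, with the age difference already known, so their differences between ages are given as a description, with no test. The study sequenced polyadenylated RNA of articular cartilage, the tissue that covers the joint surfaces, to ask how its expression changes with age. All mice were wild type (WT) and no treatment is named, 3 libraries were 2-month and 3 were 18-month by the age of the mice, and the methods describe male mice. Whether a library held 1 animal or several is not given in the sources used here, so the spread between libraries may be partly technical.

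Actin is the protein of the thin filaments that give a cell its shape and let it move. Beta-actin and gamma-actin, encoded by Actb and Actg1, make up the cytoplasmic filaments of nearly every cell, whereas Acta2 encodes the alpha-actin of smooth muscle and myofibroblasts. Monomers are held or delivered by thymosin beta 4 (Tmsb4x) and profilin 1 (Pfn1), and old filaments are cut by cofilin 1 (Cfl1). Branches are started by the Arp2/3 complex, of which Arpc1b encodes a subunit, when it is switched on by WASP (Was). Coronin 1A (Coro1a) binds filaments at such sites, and L-plastin (Lcp1) ties filaments into bundles. Was, Coro1a and Lcp1 are known as genes of white blood cells, where loss of WASP, coronin 1A or Arpc1b causes immune deficiency. Chondrocytes, the resident cells of cartilage, are small round cells with a thin actin layer under the membrane.

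The isoform genes encode closely similar proteins, and those of Actb and Actg1 differ only near their start. The first 30 coding bases of the 4 isoform genes that were best expressed in 2-month cartilage are shown 5′ to 3′, as read from the GENCODE M21 transcripts. Capitals mark the 8 bases that differ between Actb and Actg1, and the 8 that differ between Acta2 and Actc1, the alpha-actin of heart muscle.
Actb: atggaTgaCgaTatcgcTgcGctGgtcGtC
Actg1: atggaAgaAgaAatcgcCgcActCgtcAtT
Acta2: atgtgtgaAgaGgaAgaCaGcacAgcCCtg
Actc1: atgtgtgaCgaCgaGgaGaCcacCgcTTtg
Over the whole coding sequence of 1128 bases, Actb and Actg1 were identical at 88.7% of positions and Actb and Acta2 at 83.0%. Despite this likeness, no stretch of 150 bases, the length of a read, was shared between the main transcripts of Actb and Actg1. Of the 1803 such stretches in Actg1, 785 (43.5%) also occur in transcripts of other genes, mostly in Gm12715. The authors' counting could therefore have divided Actg1 reads with Gm12715, which carried 2847 to 3625 counts at 2 months and 8284 to 9814 at 18 months. Arpc1b shared 33 of 2956 stretches with Gm5637, and the other 8 genes shared none with any other gene.

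The libraries held 48171507 to 59085179 counts, and replicates of 1 age differed by 6.32 to 48.7 times the counting noise (median chi-square per gene), so each was kept as its own sample. The labelled tissue was checked by marker genes. The summed FPKM (fragments scaled by gene length and by library size) of 14 chondrocyte markers was 9584 to 11825 at 2 months and 92.8 to 320.2 at 18 months, where Matn1 and Matn3 were at 0 in at least 1 library. The sum of 8 general leukocyte markers was 4.74, 141.4 and 13.2 in 2-month replicates 1, 2 and 3, and 733 to 751 in the 18-month libraries. The sum of 12 neutrophil markers was 8.98, 3683 and 58.0 at 2 months and 42450 to 47386 at 18 months. All 8 leukocyte and all 12 neutrophil markers were higher in every 18-month library than in any 2-month library, and all 14 chondrocyte markers lower. Over all genes tested, 33.9% were higher and 34.6% lower in this sense. By the edgeR rule given below, 1 of the 8 leukocyte, 0 of the 12 neutrophil and all 14 chondrocyte markers were called. Among the 2-month libraries, replicate 2 carried the most of these blood cell markers. Counts of Xist, an RNA made from inactive X chromosomes, were 88239 to 102417 at 2 months and 11 to 30 at 18 months, and those of the Y-linked Ddx3y 0 to 10 and 4333 to 4839. In sex, then, the ages are different, the young libraries do not follow the methods, and sex and age cannot be told apart. In bulk tissue, fewer cells of a type and less RNA per cell cannot be told apart either.

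Between the ages, 9 of the 10 genes were higher in 18-month cartilage and Acta2 alone was lower, and for each gene the 3 libraries of 1 age lay entirely above or below those of the other. Across all 20397 genes tested, 68.6% did not overlap between the ages, 33.9% with the 18-month libraries above and 34.6% with them below. A gene was called when edgeR's quasi-likelihood test gave a Benjamini-Hochberg adjusted p-value below 0.05 and the log2 fold change was above 1 or below -1. By that rule 8 of the 10 genes were called, 7 higher and 1 lower. The same rule called 36.3% of all genes tested, 14.9% higher and 21.3% lower. Since the rule that chose the 10 genes used this contrast, nothing is read from their count.

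**Figure D1:**
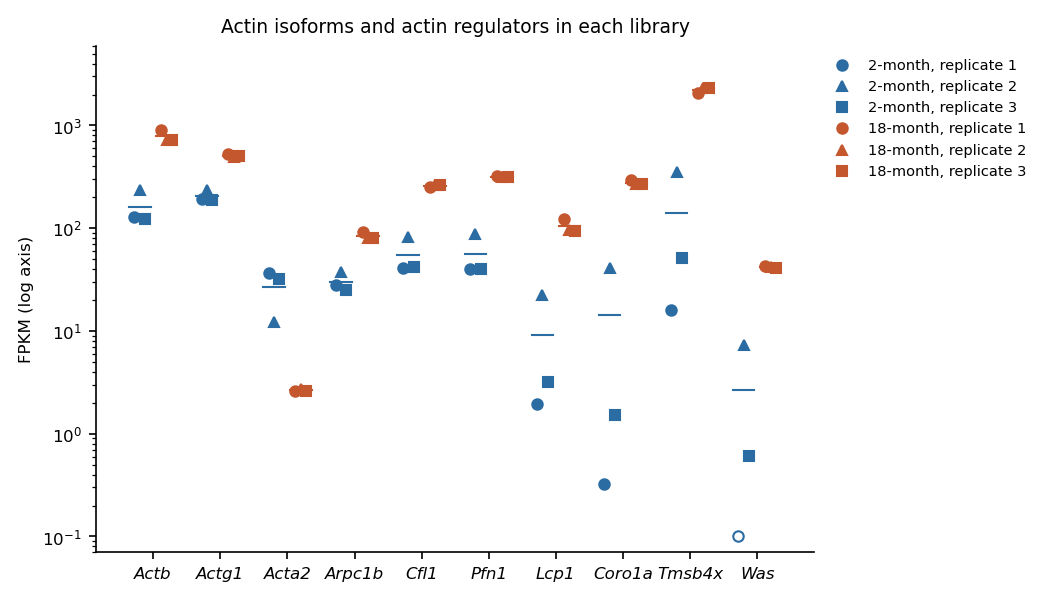
FPKM on a log axis of the 10 actin genes in each library. Blue symbols are 2-month and red symbols 18-month libraries, the symbol shape gives the replicate, and the short lines are group means over 3 libraries. The open circle marks Was in 2-month replicate 1, where it had 0 counts and is drawn at 0.1. In 2-month replicate 2 (triangles) every gene lies nearer to the 18-month libraries than in the other 2-month libraries.

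Actb (ENSMUSG00000029580, minus strand, chr5:142903115-142906754 on GRCm38) had an FPKM of 128, 236 and 123 in 2-month replicates 1, 2 and 3. In the 18-month libraries it had 900, 727 and 717. Even the highest 2-month library, replicate 2, was at 30.2% of the 18-month mean. The fitted log2 fold change of Actb was 2.21 ± 0.29 (SE, n = 3 and 3), or 4.62-fold.

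Actg1 (ENSMUSG00000062825, minus strand, chr11:120345690-120348542) differed by less. Its FPKM was 193, 237 and 189 at 2 months and 531, 498 and 499 at 18 months. It was the steadiest of the 10 genes within the 2-month group, with a coefficient of variation of 12.9% against 39.2% for Actb. The log2 fold change was 1.23 ± 0.15, or 2.34-fold, and 0.87 after rescaling to TPM, which is the 1 scaling that took it below the limit of 1. Gm12715, which shares sequence with Actg1, was also among the 3 genes with the profile most similar to that of Actg1.

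Acta2 (ENSMUSG00000035783, minus strand, chr19:34241090-34255590) went the other way. It had an FPKM of 36.9, 12.1 and 32.0 at 2 months and 2.59, 2.75 and 2.59 at 18 months. The 18-month libraries were within 1.06-fold of each other, whereas 2-month replicate 2 had 0.351 times the mean of the other young libraries. The fitted level was 10.97-fold lower at 18 months (log2 fold change -3.46 ± 0.48). Of 12 genes of the smooth muscle contractile apparatus, 7 lay lower in every 18-month library and 2 higher, against 34.6% and 33.9% of all genes tested. Their median log2 fold change was -0.62 against -0.02 over all genes. By the rule above 3 were called lower and 1 higher, together 33.3% against 36.3% of all genes, so nothing is read from the calls. The lower calls were 5 without 2-month replicate 1, and the higher calls were 3 without 2-month replicate 2 and 2 without 18-month replicate 1. Levels within the list differed widely. Smtn, smoothelin, fell from 27.6 ± 2.3 to 8.92 ± 1.2 FPKM (SD, n = 3, edgeR adjusted p = 0.0012), whereas Myh11, the smooth muscle myosin heavy chain, stayed at or below 0.348 FPKM in all 6 libraries and Lmod1 at or below 0.440. Cnn1, calponin 1, was called lower (log2 fold change -2.28 ± 0.44, edgeR adjusted p = 0.0084), but at a level as low as that of Myh11 and Lmod1. It had 0.349 to 0.496 FPKM at 2 months and 0.0537 to 0.109 at 18 months, the latter from 10 to 20 counts. Myl9, a myosin light chain, was called higher (3.09 ± 0.25, edgeR adjusted p = 0.0011).

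The genes that handle actin monomers were higher at 18 months from different starting points. Pfn1 (ENSMUSG00000018293, chr11:70651850-70654644, minus strand) had an FPKM of 39.9, 88.0 and 40.2 at 2 months and 324, 314 and 316 at 18 months. The log2 fold change was 2.45 ± 0.32, or 5.46-fold. Tmsb4x (ENSMUSG00000049775, chrX:167207093-167209315, minus strand) had 16.1, 354 and 51.6 at 2 months and 2064, 2299 and 2333 at 18 months. It was the most abundant of the 10 genes at 18 months, and at 2 months it had a coefficient of variation of 132%. The log2 fold change of Tmsb4x was 3.98 ± 1.14, or 15.8-fold.

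Cfl1 (ENSMUSG00000056201, chr19:5490455-5495201, plus strand), which severs filaments, had an FPKM of 41.3, 82.8 and 41.7 at 2 months and 254, 264 and 261 at 18 months. Its log2 fold change was 2.18 ± 0.28, or 4.52-fold. Arpc1b (ENSMUSG00000029622, chr5:145114215-145130705, plus strand), the Arp2/3 subunit, had 27.9, 37.1 and 25.2 at 2 months and 92.7, 81.2 and 80.9 at 18 months. Its log2 fold change was 1.43 ± 0.15, or 2.69-fold. Both genes overlap a gene on the other strand, Cfl1 with Snx32 (687 to 1080 counts per library) and Arpc1b with Pdap1 (3449 to 4931 counts), and whether counting used the strand is not given in the sources used here.

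The 3 genes known from white blood cells had the lowest levels of the higher-going genes in 2-month replicates 1 and 3. Lcp1 (ENSMUSG00000021998, chr14:75131101-75230842, plus strand) had an FPKM of 1.95, 22.2 and 3.20 at 2 months and 123, 95.9 and 93.7 at 18 months. Coro1a (ENSMUSG00000030707, chr7:126699773-126704816 in the table, minus strand, with other ends in GENCODE M21) had 0.327, 41.2 and 1.51, against 294, 267 and 270. Was (ENSMUSG00000031165, chrX:8081453-8090498, minus strand) had 0, 7.35 and 0.604, against 42.5, 41.8 and 40.7. The 0 counts of Was in 2-month replicate 1 allow up to 3 counts, an FPKM of 0.0229, for counting error only. In all 3 genes, 2-month replicate 2 stood far above the other young libraries, by 8.62-fold for Lcp1, 45.0-fold for Coro1a and 24.3-fold for Was over their mean. It still reached only 21.3%, 14.9% and 17.7% of the 18-month means.

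The log2 fold changes of these 3 genes were 3.50 ± 0.96 for Lcp1, 4.28 ± 1.71 for Coro1a and 3.97 ± 1.76 for Was. Coro1a thus had the largest fold change of the 10 genes (19.4-fold), yet Coro1a and Was were the 2 that were not called. Both were called without 2-month replicate 2, when all 10 were called against 44.6% of all genes, with log2 fold changes of 8.10 for Coro1a and 6.97 for Was. Lcp1 and Tmsb4x were no longer called without 2-month replicate 3 or without any 1 of the 18-month libraries, with log2 fold changes from 3.11 to 3.56 for Lcp1 and from 3.60 to 4.06 for Tmsb4x. In those fits 6 of the 10 were called, against 26.4%, 31.4%, 27.1% and 27.1% of all genes, and a test against a fold change of 2 called 5 of the 10, against 19.8%. The calls of Actb, Actg1, Acta2, Arpc1b, Cfl1 and Pfn1 held with any 1 library left out. The part of 2-month replicate 2's blood cell markers in these values was not tested.

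Levels can be compared between genes only per length. By FPKM the order at 18 months was Tmsb4x, Actb, Actg1, Pfn1, Coro1a, Cfl1, Lcp1, Arpc1b, Was and Acta2, and none of the 9 neighbouring pairs overlapped. At 2 months the order of the means was Actg1, Actb, Tmsb4x, Pfn1, Cfl1, Arpc1b, Acta2, Coro1a, Lcp1 and Was, and 8 of 9 neighbouring pairs overlapped, the exception being Cfl1 above Arpc1b. The FPKM of the 10 genes corresponded to a length 1.14 times that of all annotated exons of the gene together, which is 1.08 to 2.79 times the length of the main transcript. With the main transcript as the length instead, Pfn1 moved above Actg1 at 18 months and Tmsb4x above Actb at 2 months.

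The balance of actin isoforms differed between the ages. Actb was 36.4% ± 7.2 (SD, n = 3) of the summed FPKM of the 6 actin genes at 2 months and 60.2% ± 2.2 at 18 months. Actg1 was 47.7% ± 2.4 and 39.4% ± 2.1. The ratio of Actb to Actg1 was 0.661, 0.994 and 0.652 in the 2-month libraries and 1.70, 1.46 and 1.44 in the 18-month libraries. Actg1 was therefore the larger in all young libraries and Actb in all aged ones, although 2-month replicate 2 was close to equal and passed 1 (1.02) when counts were divided by the main transcript's length. Acta2 took 9.28%, 2.30% and 8.42% of the summed actin FPKM at 2 months and 0.180% to 0.223% at 18 months. Actc1 took 8.05% ± 2.08 at 2 months and 0.169% ± 0.105 at 18 months.

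Actc1, which is not one of the 10 genes, could be tested. It had an FPKM of 39.8, 30.9 and 31.5 at 2 months and 0.692, 2.75 and 2.89 at 18 months, and fell by 4.08 ± 0.60 on the log2 scale (edgeR adjusted p = 0.0037). Acta1, the actin of skeletal muscle, fell by 5.91 ± 1.09 (edgeR adjusted p = 0.0073), from 0.836 to 10.8 FPKM at 2 months to 0.0317 to 0.142 at 18 months. Of the 8 skeletal muscle markers, Acta1 among them, 7 were tested and 4 were called lower, against 21.3% of all genes. Mylpf, Actn3 and Myh2 overlapped between the ages and were not called. Myh1 and Myh4 were at 0 in every 18-month library, but Myh4 was also at 0 in 2-month replicate 1 and was not tested. The summed FPKM of the list was 6.05 to 29.7 at 2 months and 4.02 to 5.34 at 18 months. Actg2, of smooth muscle, stayed at 0.0432% or less of the summed actin FPKM in every library. The 4 muscle actins together made 10.2% to 19.5% of the actin FPKM at 2 months and 0.250% to 0.477% at 18 months. The sum over all 6 actin genes was 398, 527 and 381 FPKM at 2 months and 1434, 1231 and 1222 at 18 months.

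**Figure D2:**
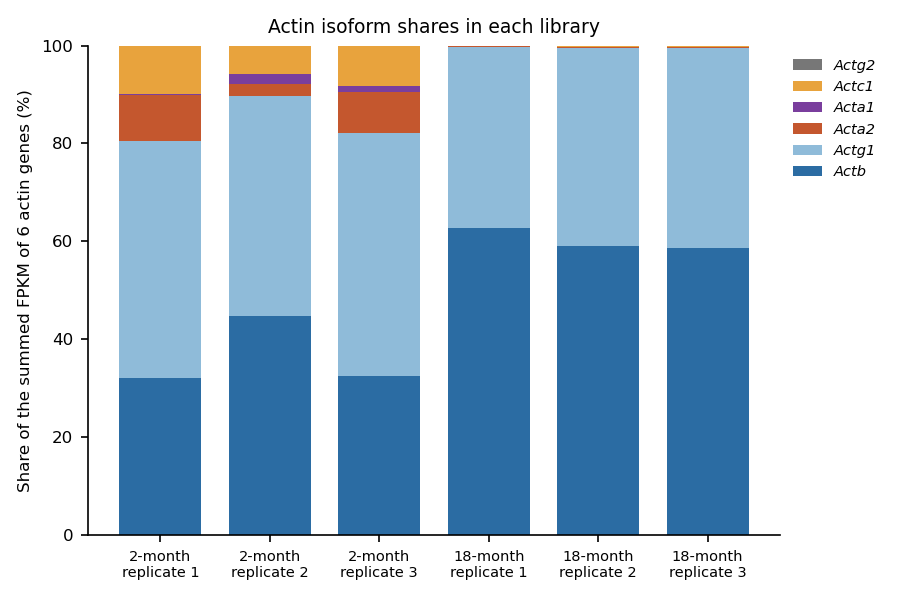
Share of each isoform in the summed FPKM of 6 actin genes, in percent, as 1 stacked bar per library. The Actb share is 32.0% to 44.7% in the 2-month bars and 58.7% to 62.7% in the 18-month bars, and the muscle isoforms at the top of the young bars are almost invisible in the aged ones.

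For the regulators, the question was whether a paralog moved alike. A ratio of paralogs within a library does not depend on scaling between libraries where both genes lie well above the 0.1 added to each FPKM. Arpc1b and Arpc1a encode alternative forms of the same Arp2/3 subunit. The FPKM of Arpc1a was 36.6, 28.4 and 34.3 at 2 months and 31.0, 32.7 and 31.3 at 18 months, overlapping between the ages (log2 fold change -0.15 ± 0.15, edgeR adjusted p = 0.45). The log2 ratio of Arpc1b to Arpc1a, on FPKM + 0.1, went from -0.15 ± 0.46 (SD, n = 3) to 1.42 ± 0.14. Pls3, the plastin of solid tissues, had 64.7, 43.0 and 57.4 FPKM at 2 months and 12.8, 6.81 and 7.12 at 18 months, and fell by 2.73 ± 0.33 on the log2 scale (edgeR adjusted p = 0.0021). Its log2 ratio with Lcp1 went from -3.35 ± 2.12 to 3.58 ± 0.29.

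Profilin 2, Pfn2, fell by 2.92 ± 0.51 on the log2 scale (edgeR adjusted p = 0.0061), from 6.79 to 10.03 FPKM at 2 months to 0.630 to 2.14 at 18 months. Wasl, the widely expressed relative of WASP, and Cfl2, the muscle cofilin, had log2 fold changes of -0.74 ± 0.09 and -0.99 ± 0.17, short of the limit of -1, although both lay lower in every 18-month library. Cfl2 passed the limit without 2-month replicate 2 (-1.09) or without 18-month replicate 3 (-1.04). Tmsb10 and Coro1b went up with their relatives, by 1.03 ± 0.17 (edgeR adjusted p = 0.0053) and 1.31 ± 0.19 (edgeR adjusted p = 0.0036). The Tmsb10 value fell just under the limit without 2-month replicate 3 (0.91) or without 18-month replicate 1 (0.96). In each of the 7 pairs that hold one of the 10 genes, the ratio of the first to the second gene was higher in every 18-month library than in any 2-month library. Over all pairs of the 20397 genes tested, taken in either order, the ratio was higher in this sense in 34.3%. Since the 10 genes were chosen on this contrast, nothing is read from the count.

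In 6 further pairs neither gene belongs to the 10. They were chosen with the higher blood cell markers of the 18-month libraries known, and set a gene known from blood cells against a widely expressed relative: the GTPases Rac2 and Rac1, the WAVE complex subunits Nckap1l and Nckap1, the cortactin relatives Hcls1 and Cttn, the formins Fmnl1 and Fmnl2, the glia maturation factors Gmfg and Gmfb, and the GDP dissociation inhibitors Arhgdib and Arhgdia. In all 6 pairs the log2 ratio was higher in every 18-month library than in any 2-month library. The exact two-sided permutation test gave p = 0.1 for each pair (adjusted over the 6 pairs, 0.1), which is the smallest value that 3 against 3 libraries allow, so the threshold could not be reached and the ratios are a description. The mean differences, 18-month minus 2-month, ran from 2.56 for Fmnl1 over Fmnl2 to 6.58 for Hcls1 over Cttn. Their size rests partly on the 0.1 added to each FPKM. In 2-month replicate 1, Gmfg, Hcls1, Nckap1l and Fmnl1 had only 0.0254, 0.102, 0.116 and 0.118 FPKM. In 5 of the 6 pairs the blood cell gene was the lower in all 3 young libraries and the higher in all 3 aged ones. The exception was Fmnl1, which already exceeded Fmnl2 in 2-month replicates 2 and 3.

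Rac2 had an FPKM of 0.174, 32.5 and 1.74 at 2 months and 183, 182 and 186 at 18 months, against 50.0 ± 4.7 and 70.4 ± 1.3 (SD, n = 3) for Rac1. The log2 fold change of Rac2 was 4.01 ± 1.70 and was not called (edgeR adjusted p = 0.095). Hcls1, Nckap1l, Fmnl1 and Gmfg were likewise not called, with log2 fold changes of 3.14 to 4.38 and edgeR adjusted p-values of 0.084 to 0.12. Without 2-month replicate 2 all 5 were called, with log2 fold changes of 5.87 for Nckap1l to 8.25 for Gmfg. Arhgdib was called with all libraries (4.33 ± 0.88, edgeR adjusted p = 0.0098), from 9.74, 77.3 and 13.0 FPKM to 676, 689 and 677.

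**Figure D3:**
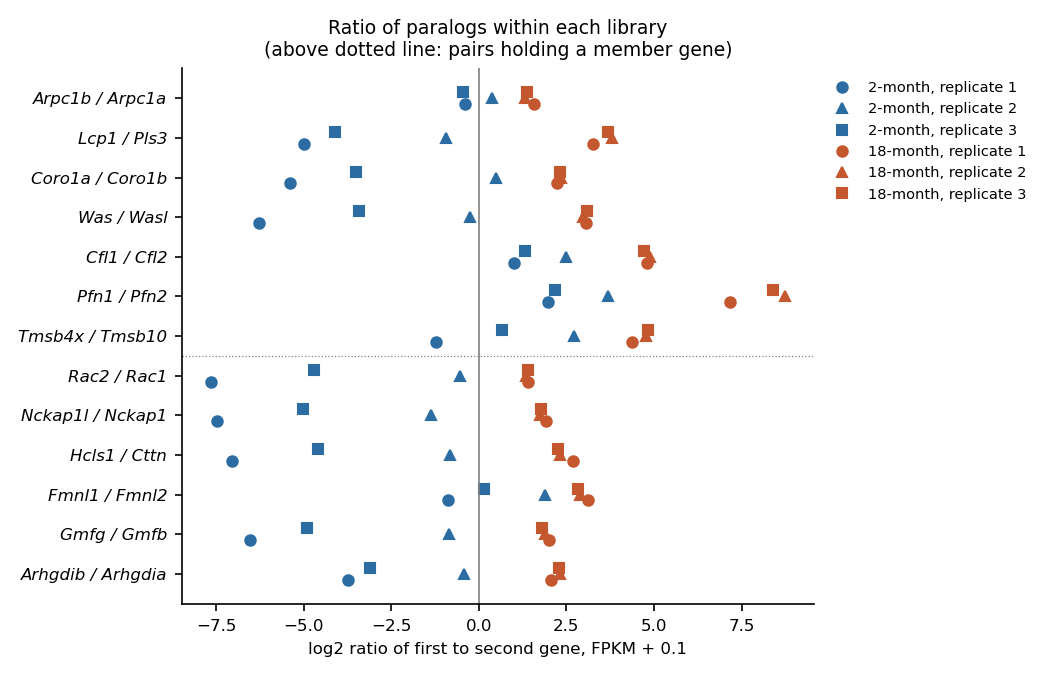
log2 ratio of the first to the second gene of 13 paralog pairs in each library, computed on FPKM + 0.1. Blue symbols are 2-month and red symbols 18-month libraries, with the replicate given by shape. The 7 pairs above the dotted line hold one of the 10 genes and the 6 below do not, and in all 13 the red symbols lie to the right of the blue.

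Beyond the 10 genes, 111 other genes of the actin pathway in 12 lists by function were read from the fit over all genes. Of these, 33 were called higher and 23 lower, together 50.5% against the 36.3% of all genes tested, and their median log2 fold change was 0.50 against -0.02. Without 2-month replicate 2, 49 were called higher and 25 lower, in a fit that called 44.6% of all genes. The lists pointed in different directions. Beside the calls of each list stand the 14.9% of all genes tested that were called higher and the 21.3% called lower.

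The Arp2/3 complex went mostly up. Of its 9 other genes, 6 were called higher and 0 lower, with a median log2 fold change of 1.84. Arpc2, the most abundant, rose from 74.3 ± 11.6 to 230 ± 12 FPKM (log2 fold change 1.56 ± 0.14, edgeR adjusted p = 0.0012). Actr3, an actin-related protein of the complex, rose by 2.00 ± 0.21 (edgeR adjusted p = 0.0016) and Arpc3 by 2.04 ± 0.23 (edgeR adjusted p = 0.0020). The 3 that were not called were Arpc1a, Arpc5l and Actr3b, each an alternative form of another subunit. Without 2-month replicate 1, Actr3b was called lower (-1.47 in place of -1.15).

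Nucleation promoters, which switch Arp2/3 on, were divided, with 2 of 17 called higher and 3 lower, or 6 and 3 without 2-month replicate 2. Without 2-month replicate 3 or any 1 of the 18-month libraries, 1 was called higher. Wasf3, a WAVE protein, fell by 3.99 ± 0.41 (edgeR adjusted p = 0.0016) at a low level, from 1.18 to 1.49 FPKM at 2 months to 0.0535 to 0.133 at 18 months. Nckap1 fell by 1.83 ± 0.16 (edgeR adjusted p = 0.0012). Brk1, the most abundant, had a log2 fold change of 0.49 ± 0.13, within the limits. Formins, which build unbranched filaments, had 4 of 13 called higher and 2 lower. The higher calls were 7 without 2-month replicate 2, and 2 without 2-month replicate 3 or any 1 of the 18-month libraries. Diaph3 rose by 2.83 ± 0.87 (edgeR adjusted p = 0.039), a call that was lost without 2-month replicate 3 or any 1 of the 18-month libraries (2.56 to 2.94). Daam2 fell by 2.61 ± 0.19 (edgeR adjusted p = 0.00092). Fmnl2 rose by 2.27 ± 0.76 (edgeR adjusted p = 0.049), which was kept only without 2-month replicate 2 among the fits with 1 library left out.

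Of 17 other genes of the cofilin family and filament turnover, 6 were called higher and 1 lower. These were 7 and 3 without 2-month replicate 2, and 6 and 0 without 2-month replicate 1. Cotl1, a coactosin-like protein that binds filaments, rose by 3.49 ± 0.75 (edgeR adjusted p = 0.012), from 5.88, 38.4 and 8.10 FPKM to 212, 193 and 196. Twf2, a twinfilin, rose by 2.38 ± 0.28 (edgeR adjusted p = 0.0021). Dstn, destrin, the most abundant of the list, had a log2 fold change of 0.90 ± 0.12, under the limit. Of 6 other coronins, 3 were called higher and 1 lower. Coro7 rose by 1.87 ± 0.38 (edgeR adjusted p = 0.0096), and Coro6 fell by 2.79 ± 0.45 (edgeR adjusted p = 0.0047). Pfn4 fell by 1.56 ± 0.39 (edgeR adjusted p = 0.019) from a 2-month mean of 0.260 FPKM, a call that was lost without 2-month replicate 1 or 3 or 18-month replicate 2 or 3 (-1.33 to -1.66).

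Bundling and crosslinking genes were divided, with 3 of 8 called higher and 4 lower and a median log2 fold change of -1.45. Fscn1, the filopodial bundler fascin, fell by 3.08 ± 0.14 (edgeR adjusted p = 0.00071), from 16.1 ± 1.5 to 2.01 ± 0.27 FPKM. Flna, filamin A, rose by 2.01 ± 0.35 (edgeR adjusted p = 0.0063). Pls1, a plastin, rose by 4.73 ± 1.31 (edgeR adjusted p = 0.028), and that call was lost without any 1 library other than 2-month replicate 2 (4.19 to 4.90). Capping and severing genes had 4 of 9 called higher and 3 lower. Gsn, gelsolin, was the most abundant gene of this list and fell by 2.21 ± 0.47 (edgeR adjusted p = 0.012), from 528, 245 and 661 FPKM to 155, 86.7 and 92.1. Its call was lost without 18-month replicate 2 (-2.06) or 3 (-2.09). Scin, adseverin, a gelsolin relative, fell by 3.75 ± 0.71 (edgeR adjusted p = 0.0080) and Avil, advillin, by 3.17 ± 0.50 (edgeR adjusted p = 0.0046).

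Of 10 small GTPases and their regulators, all had log2 fold changes above 0 (9 of 10 after rescaling to TPM), and 2 were called higher, or 6 without 2-month replicate 2. Besides Arhgdib this was Dock8, an activator of Cdc42 in lymphocytes (1.25 ± 0.21, edgeR adjusted p = 0.0058). Of 4 serum response factor genes, which control actin gene transcription, 1 was called higher and 2 lower, with a median log2 fold change of -0.39. Mrtfa rose by 2.19 ± 0.36 (edgeR adjusted p = 0.0049). Its relative Myocd, the cofactor of smooth muscle, fell by 3.80 ± 0.74 (edgeR adjusted p = 0.0087) at 0.226 ± 0.118 FPKM in the young libraries. Mrtfb, the other relative, was also called lower. Srf itself had a log2 fold change of 0.92 ± 0.17, and passed the limit without 2-month replicate 2 (1.07) or 18-month replicate 3 (1.02).

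**Figure D4:**
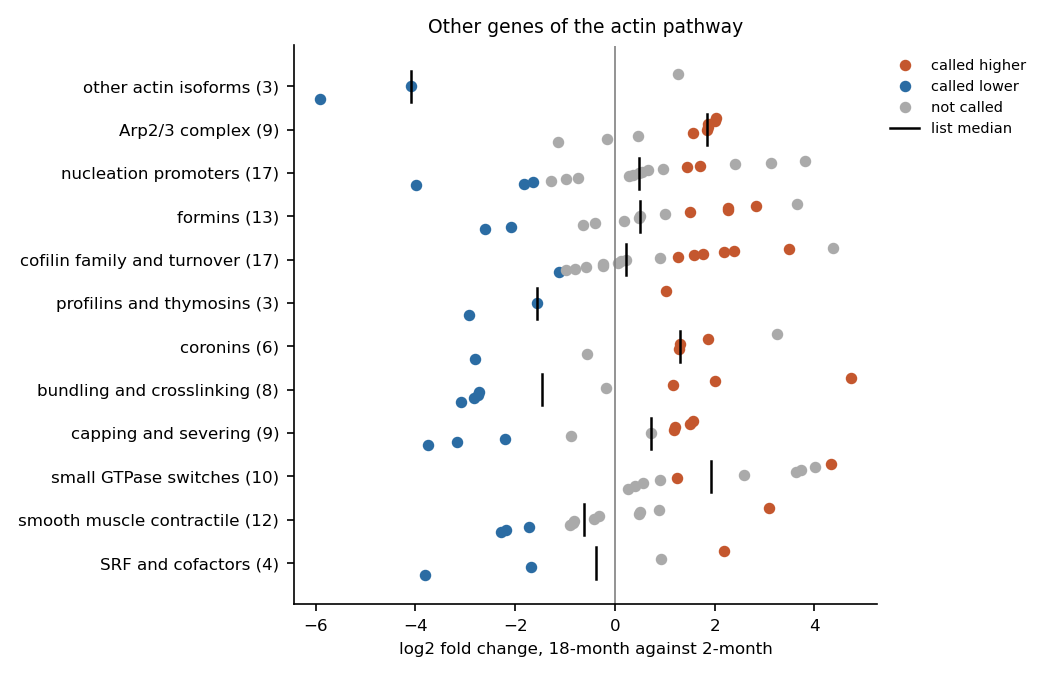
log2 fold change of 18-month against 2-month cartilage for the 111 other actin pathway genes, 1 point per gene, grouped in 12 lists with the number of genes in parentheses. Red points were called higher, blue points lower and grey points not called by the rule given in the text, and black lines are list medians, which run from -4.08 for the other actin isoforms to 1.92 for the small GTPase switches.

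How closely each gene followed the leukocyte content was described by its ratio to the summed FPKM of the 8 leukocyte markers, over 6 libraries that share their scaling. In 2-month replicates 1 and 3, Laptm5 alone gave 2.92 and 6.18 of the summed 4.74 and 13.2 FPKM. The ratios in these libraries therefore rest largely on 1 marker. Without Laptm5 the sum of the other 7 was 1.82, 107 and 7.06 at 2 months and 627 to 650 at 18 months, and ratios to it were not computed. For Tmsb4x the ratio to all 8 lay between 2.50 and 3.89, within 1.56-fold, while its FPKM spanned 145-fold. For Was it lay between 0.0456 and 0.0570 in the 5 libraries in which Was was above 0. In 2-month replicate 1, the limit of 3 counts allows a ratio of at most 0.00483, so the other 5 were at least 9.44-fold higher. The ratio spanned 3.24-fold for Lcp1 and 5.69-fold for Coro1a. For Actb, Actg1, Arpc1b, Cfl1 and Pfn1 it spanned 19.7-fold to 60.2-fold, more than the 2.80-fold to 8.11-fold of their own FPKM, since they were well expressed where leukocyte markers were nearly absent. Acta2, which went down, spanned 2262-fold. The part of leukocyte content in these differences was not tested.

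The genes with the most similar profile were those with the smallest root mean square difference in log2(FPKM + 0.1) over the 6 libraries after centring, where a gene's mean FPKM was 1 or more. Closest to Actb was Vsir, an immune checkpoint receptor, with a difference of 0.0185, at 12.0, 22.6 and 11.6 FPKM in the 2-month libraries and 86.4, 67.4 and 68.6 in the 18-month libraries. Rpia (0.0615) and Itprip (0.0668) came next. For Actg1 they were Bub3 (0.0198), Gm12715 (0.0254) and Rab5c (0.0310), and for Arpc1b they were Mrpl18 (0.0577), Lrrfip1 (0.0602) and Noc4l (0.0618). Those for Cfl1 included C1qtnf12 (0.0402) and Ifngr1 (0.0587). Pfn1 had Gpx1, the glutathione peroxidase (0.0360), Myl12b (0.0462) and Limd2 (0.0923).

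Was was nearest to Itgb2 (0.0860), the beta chain of the leukocyte integrins, which is itself on the leukocyte marker list, then to Selplg (0.0970), a ligand of selectins, and Lst1 (0.114). Near to Coro1a were Plbd1 (0.125) and Cebpe (0.146), a transcription factor of granulocytes. Lcp1 was nearest to Baz1a (0.0724), Tfec (0.120) and Kcnab2 (0.127), and Tmsb4x to Gm15922 (0.0951), Tspo2 (0.102), a gene of red cell precursors, and Tlr13 (0.144). For Acta2 they were Lvrn (0.178), Id4 (0.188) and Gm7997 (0.191), so its nearest profiles were farther off than those of any other of the 10 genes. Among the 10 genes themselves, Actb was nearest to Cfl1 (0.127), Actg1 to Arpc1b (0.127) and Coro1a to Was (0.557).

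Actb is widely used to normalise quantitative PCR. It was set beside 12 common reference genes, of which 4 were called higher and 1 lower. Together these are 41.7%, near the 36.3% of all genes tested, so nothing is read from the calls. Ranked by the size of the log2 fold change among these 12 genes, Actb and Actg1, Actb came after B2m alone (2.49 ± 0.48, edgeR adjusted p = 0.0085). Hprt followed (1.39 ± 0.12, edgeR adjusted p = 0.0013), and then Actg1. Eef1a1, the most abundant, had a log2 fold change of 0.15 ± 0.25 and an FPKM of 1794 ± 136 at 2 months and 2109 ± 37 at 18 months. Sdha was at 0.02 ± 0.12. Gapdh was at only 7.30 to 11.6 FPKM at 2 months and 8.41 to 9.27 at 18 months. Whether reference genes share sequence with other genes was not checked. The ratio of Actb to Sdha went from 3.83 to 17.5 and that of Actb to Eef1a1 from 0.0916 to 0.371. Relative to B2m, Actb was at 1.05, 0.600 and 0.992 at 2 months and at 0.733, 0.580 and 0.592 at 18 months, and the ages overlapped. Without any 1 library other than 2-month replicate 2, 3 of the 12 reference genes were called in place of 5, in fits that called 26.4% to 31.4% of all genes.

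**Figure D5:**
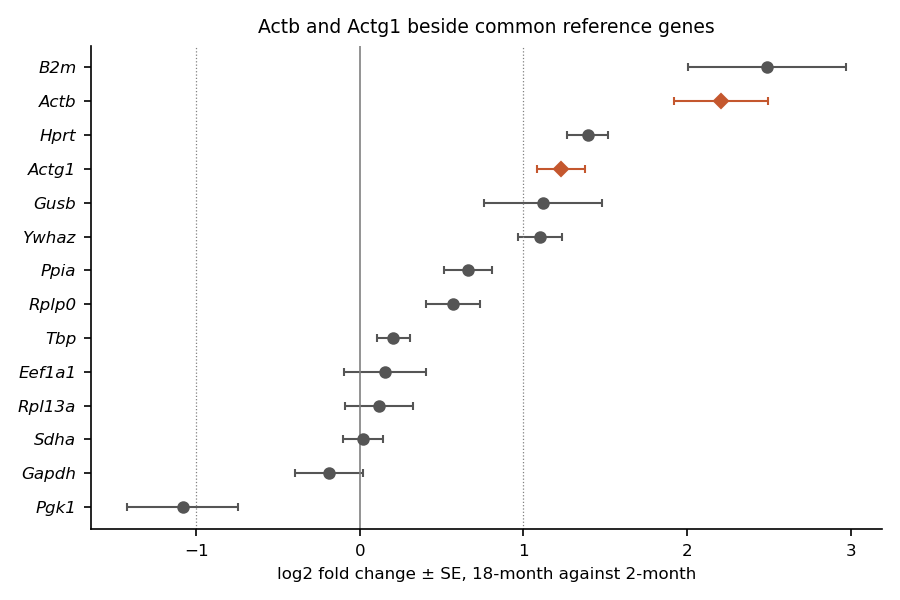
log2 fold change of 18-month against 2-month cartilage with its standard error for Actb and Actg1 (red diamonds) and 12 common reference genes (grey circles). Dotted lines mark the limits of -1 and 1. Actb lies at 2.21 and Actg1 at 1.23, while Gapdh, Eef1a1, Rpl13a, Sdha and Tbp lie between -0.19 and 0.20.

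Promoter sequence was available for 9 of the 10 genes, in 11 windows of 300 bases (250 before and 50 after the start, from RefSeq on GRCm38.p6), since Coro1a and Lcp1 have 2. A set of 3 motifs was searched: the CArG box bound by serum response factor (CC, 6 letters of A or T, GG) and GAGGAAG, a core bound by ETS factors such as PU.1, on both strands, and TATAAA on the strand of the gene. The CArG box was found in Actg1, 90 bases before the start, and in 1.63% of 32851 windows of all genes. GAGGAAG was found in Arpc1b, 2 bases after the start, and in 13.6% of all windows. TATAAA was in none of the 11 windows and in 8.32% of all. The windows of the 2 genes with a match are shown 5′ to 3′ on the strand of the gene with the match in capitals, beside that of Acta2, the gene that was lower, in which none of the 3 was found with every letter matching. The Acta2 window holds ccctatatgg, 84 bases before the start, and ccttgtttgg, 34 bases before it, each 1 base off the CArG box. Such a stretch 1 base off was found in 2 of the 11 windows, those of Acta2 and Cfl1, and in 19.9% of all windows.
Actg1, chr11:120348446-120348745, minus strand: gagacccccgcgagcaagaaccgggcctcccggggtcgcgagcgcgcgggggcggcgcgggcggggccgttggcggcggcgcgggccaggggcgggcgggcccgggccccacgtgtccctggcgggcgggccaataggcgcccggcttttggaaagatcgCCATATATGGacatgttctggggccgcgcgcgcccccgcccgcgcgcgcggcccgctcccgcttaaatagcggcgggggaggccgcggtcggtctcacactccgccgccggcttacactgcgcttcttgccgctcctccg
Arpc1b, chr5:145114006-145114305, plus strand: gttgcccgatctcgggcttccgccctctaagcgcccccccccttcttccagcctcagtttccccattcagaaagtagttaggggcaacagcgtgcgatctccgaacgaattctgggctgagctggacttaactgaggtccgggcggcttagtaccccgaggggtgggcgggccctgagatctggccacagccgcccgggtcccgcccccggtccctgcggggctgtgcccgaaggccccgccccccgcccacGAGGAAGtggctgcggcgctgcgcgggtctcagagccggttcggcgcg
Acta2, chr19:34255324-34255623, minus strand: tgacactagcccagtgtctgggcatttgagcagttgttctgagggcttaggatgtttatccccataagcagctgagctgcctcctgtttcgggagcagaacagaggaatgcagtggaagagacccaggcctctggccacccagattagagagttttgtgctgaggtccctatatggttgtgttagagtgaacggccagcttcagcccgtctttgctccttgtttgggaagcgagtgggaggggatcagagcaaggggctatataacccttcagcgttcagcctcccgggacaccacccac
A match describes the letters of the window alone. GC content was 77.3% in the Actg1 window, 69.3% in Arpc1b and 54.7% in Acta2.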

How the data were processed

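Articular cartilage RNA of 6 wild-type libraries, 3 per age, was analysed. The authors deposited counts per gene, without normalization, and FPKM values scaled by gene length and library. The submitters' processing notes name cutadapt 1.9, HISAT2 2.0.4, UMI-tools, StringTie 1.3.4d, DESeq2 and edgeR, and the genome build is not given in the sources used here. Libraries were stranded, with molecular identifiers and paired reads. Of 33971 table genes, 33865 were found in GENCODE M21 (GRCm38) and 30925 had identical coordinates. Columns left out numbered 0. Total counts of 48171507 to 59085179 set the precision.

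The groups were taken from the sample titles. Counts went into edgeR 4.0.16 under R 4.3.3 (TMM, filterByExpr, quasi-likelihood, Benjamini-Hochberg over 20397 genes), and standard errors were taken as |log2 fold change| over the root of the F statistic. The code of the test was checked on simulated counts with the same spread for all genes and libraries. That check does not show how the test behaves with the spread between these replicates. Paralog ratios used log2(FPKM + 0.1) and the exact two-sided permutation test. Alternatives used DESeq2 1.42.0, limma 3.58.1, other scalings, filters and pseudocounts, glmTreat at a fold change of 2, a replicate block and leaving out each library. Counts per base of the main transcript, marker sums without the leading gene and the CArG box with 1 base off were added after seeing the data. Tables and figures were made with Python 3.11.15, pandas 2.3.3 and matplotlib 3.10.9.

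The 10 genes and all lists were chosen with earlier results of these data known. Named were the 10 genes, for each list the most abundant gene and the 2 called genes with the largest fold change, the paralog pairs and the 3 nearest profiles of each gene. Myh11, Lmod1, Arpc5l, Actr3b, Actg2, Sdha, Smtn, Ibsp, Cspg4, Laptm5, Mrtfb, Mylpf, Actn3, Myh2, the remaining reference genes of the plot and the genes sharing or overlapping sequence were named after their values were seen. So were Sp7, Ms4a1, Kcnj8 and Cdh5. Marker lists also covered monocytes, lymphocytes, erythroid cells, megakaryocytes, osteoclasts, osteoblasts, endothelium, pericytes, skeletal muscle and fibroblasts. Some genes of the reference list and of the nearest profiles are not reported here. The table gives Mrtfa and Mrtfb for the older symbols Mkl1 and Mkl2.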

Additional observations from a re-analysis of the deposited data

How the results depend on the processing

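The test against a fold change of 2 called 5 of the 10 actin genes in place of 8, 37 of the 111 other actin pathway genes in place of 56, and 4033 genes in all in place of 7401 (33.9% of them higher, against 41.2%), and the lower counts follow from its stricter hypothesis. With 1 library left out, 6 to 10 of the 10 actin genes, 49 to 74 of the 111 others and 5640 to 9583 genes in all were called. All other alternatives kept these counts within 1.5 times. The share of higher genes among all calls was 50.6% with limma on log2(FPKM + 0.1), 57.8% with a pseudocount of 1, 34.8% after rescaling to TPM and 52.2% without 2-month replicate 2. Over all genes the median log2 fold change went from 0.07 to -0.33 after rescaling to TPM, and against that shift the 12 reference genes split 6 above and 6 below 0. Over the 12 alternatives with all libraries, the log2 fold change ran from 1.89 to 2.33 for Actb, from 0.87 to 1.31 for Actg1, from -3.62 to -2.80 for Acta2, from 4.17 to 6.86 for Coro1a and from 3.87 to 6.87 for Was. Coro1a was called in 5 and Was in 4 of these 12. The difference in the Actb share of actin, 23.8 percentage points, was 21.6 to 27.9 with 1 library left out and 22.05 on raw counts. The sign of the difference reversed in the actin isoform share of Actg2 alone, from -0.00274 to 0.0104 percentage points without 2-month replicate 3, and with each other library left out it ran down to -0.0112. Ages share replicate numbers, but same-numbered libraries did not deviate together (correlations 0.034, 0.044 and -0.024), so the libraries share only a number. With the replicate block 8 of the 10 genes, 54 of the 111 and 6032 in all (29.6%) were called. An exact sign-flip permutation test over same-numbered libraries kept all 6 paralog pairs higher, with p = 0.25, the smallest it can give, so nothing is read from it. Depth limits the lowest values, since in 2-month replicate 1 Was had 0 counts, Gmfg 4, Pls1 7, Hcls1 15, Rac2 30, Fmnl1 33 and Coro1a 52, and Acta1 had 4 to 15 counts in the 18-month libraries.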

Other observations

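Markers of other blood lineages moved in the same direction as the leukocyte markers beside the actin genes. The summed FPKM of 8 erythroid markers was 288, 7370 and 788 in the 2-month libraries and 29874, 39634 and 39275 in the 18-month libraries. All 8 lay higher in every 18-month library, as did 33.9% of all genes tested, and 3 of the 8 were called. For 6 megakaryocyte markers, cells that make platelets, the sum was 1.56, 45.5 and 3.67 at 2 months and 961, 1445 and 1411 at 18 months. The 10 monocyte and macrophage markers summed to 6.59, 161 and 36.7, against 598 to 606, and the 8 T and NK markers to 0.285, 10.6 and 0.525, against 98.9 to 115. The sum of the 7 B lymphocyte markers overlapped between the ages, at 1.01, 95.4 and 1.68 against 66.4 to 81.6, although Ms4a1 of that list lay higher in every 18-month library. The sum of the 6 osteoclast markers also overlapped, at 36.3, 1984 and 386 against 706 to 868. In each of these lists 2-month replicate 2 had the highest sum of the young libraries.

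Lists for solid tissues differed. The 8 osteoblast and osteocyte markers summed to 1732 to 3376 at 2 months and 958 to 1008 at 18 months. Without Ibsp, a bone matrix protein, the sum of the other 7 overlapped between the ages, at 372, 1754 and 302 against 766 to 825. Among those 7, Sp7 was called lower (log2 fold change -2.25 ± 0.34, edgeR adjusted p = 0.0039). The 8 fibroblast markers of synovium and tendon summed to 7322, 3175 and 7447 at 2 months and 1554, 326 and 321 at 18 months. The 7 endothelial markers summed to 2.33, 39.5 and 6.31 against 34.3 to 38.4. Without Cdh5, the most abundant of them at 2 months, the sum of the other 6 did not overlap, at 1.74, 26.5 and 4.87 against 28.2 to 32.7. The 8 smooth muscle and pericyte markers summed to 23.5 to 46.9 against 19.9 to 22.5. Without Cspg4, a proteoglycan known from pericytes that also occurs in cartilage, the sum of the other 7 overlapped, at 2.64, 24.5 and 4.91 against 19.5 to 21.6. Of those 7, Cnn1 and Lmod1 lay lower in every 18-month library and Kcnj8 higher. The part of these cell types in the levels of the actin genes was not tested.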
